A study of Mus musculus with 6 samples.

Results

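The NMDA receptor subunits are the 7 genes Grin1, Grin2a, Grin2b, Grin2c, Grin2d, Grin3a and Grin3b. They were taken by gene symbol from a table of 24421 symbols, and each had 1 row. All 7 passed the filter on low counts, which left 14852 genes for testing. Cortex was sampled from C57BL/6 mice, all of which, in both groups, had been through MCAO (occlusion of the middle cerebral artery), an operation that models ischaemic stroke. The control group of 3 samples (GFP_MCAO) was given green fluorescent protein, and the other 3 samples (NeuroD1_MCAO) were given NeuroD1, a proneural transcription factor. The sources used here do not give the vector, the time after stroke, or the animals' age and sex. The family was put forward with the differences between these groups already known, and Grin2c was singled out for its difference. The values of the 7 subunits in this contrast are therefore a description. Counts of subunits past a test threshold are given only beside the share of all tested genes, and nothing is read from them. The labels do not say whether each sample came from a separate animal, so the spread between samples, and any p-value given for other genes, may be partly technical.

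NMDA receptors are tetrameric glutamate-gated channels that pass calcium and need glycine or D-serine as a co-agonist. Every receptor holds GluN1, encoded by Grin1, together with GluN2 subunits (Grin2a to Grin2d), which bind glutamate and set the kinetics and magnesium block, or with GluN3 subunits (Grin3a and Grin3b), which bind glycine. In forebrain neurons GluN2A and GluN2B are the usual partners of GluN1, whereas Grin2c is known from cerebellar granule cells, thalamus and astrocytes. NMDA receptor overactivation is a classical route of neuronal death in ischaemia.

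Library totals ranged from 7753101 to 9698795 counts with GFP and from 10843273 to 13440244 with NeuroD1, so that 1 count was worth between 0.0753 and 0.134 CPM (counts scaled by the TMM-adjusted library size). Neurod1 lay between 3.87 and 6.48 CPM in the GFP libraries and between 14.6 and 48.5 CPM in the NeuroD1 libraries. The excitatory cortical marker Slc17a7 was present in every library (369 to 1862 CPM). NeuroD1 replicate 2 stood apart: it had the lowest summed level of 12 pan-neuronal markers (2349 CPM, against 3399 to 6315 in the other libraries) and the highest level of Zic1 (115 CPM, against 25.7 to 36.8), a gene picked out after its values were seen.

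Grin2c stood apart from the other subunits, with a fitted level 3.24-fold lower in the NeuroD1 libraries than in the GFP libraries. The groups overlapped in the other 6 subunits. Across the 7 genes 3 fitted log2 fold changes were above 0 and 4 below, with a median of -0.40, beside a median of 0.02 over all 14852 tested genes. After Benjamini-Hochberg adjustment edgeR's quasi-likelihood test called 0 of the 7, and 0% of all tested genes. At an unadjusted edgeR p under 0.05 there was 1 of the 7 (Grin2c), beside 24.0% of all tested genes. DESeq2 called 1 of the 7 (Grin2c), beside 9.45% of all tested genes, and limma-voom called 0, beside 0%. With the replicate number as a block edgeR called 1 of the 7 (Grin2c), beside 3.23% of all tested genes. In 1 of the 7 (Grin2c) every NeuroD1 library lay on one side of every GFP library, beside 29.6% of all tested genes. Since the family was chosen on this contrast, nothing is read from these counts.

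**Figure D1:**
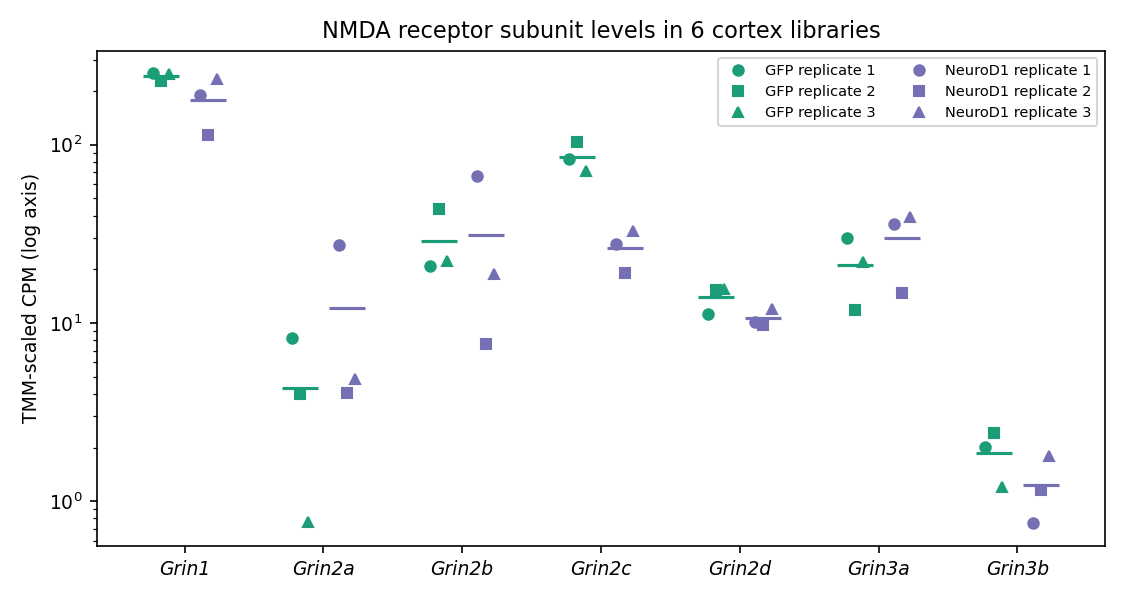
TMM-scaled CPM (log axis) of the 7 NMDA receptor subunit genes in the 3 GFP (green) and 3 NeuroD1 (purple) libraries, with circles, squares and triangles for replicates 1, 2 and 3 and a bar at each group mean. Grin2c lies between 70.7 and 103 CPM in the GFP libraries and between 19.0 and 32.6 CPM in the NeuroD1 libraries, whereas the groups overlap in the other 6 genes.

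Grin1 encodes the obligatory subunit (chromosome 2, 25291181 to 25319187, minus strand, GRCm38, protein coding). It held 252, 227 and 249 CPM in GFP replicates 1, 2 and 3, from 2484, 1696 and 2288 counts. In NeuroD1 replicates 1, 2 and 3 it held 189, 113 and 233 CPM, from 2515, 1168 and 2595 counts. The GFP libraries were close together, with a coefficient of variation of 5.64%, while the NeuroD1 libraries spread over 34.0% and the highest of them passed the lowest GFP library. The fitted log2 fold change was -0.44 (SE 0.28). It was -0.19 without NeuroD1 replicate 2, the library with the lowest summed pan-neuronal level, and -0.67 without NeuroD1 replicate 3. Set against the geometric mean of the pan-neuronal markers, Grin1 stood at 79.6, 122 and 99.1 CPM per 100 CPM in the GFP libraries and at 65.1, 85.6 and 68.0 in the NeuroD1 libraries, where the groups again overlapped. Grin1os, an antisense gene annotated across the Grin1 locus, held 1.05 to 10.7 CPM in the 6 libraries.

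Grin2c encodes GluN2C, which gives receptors with weak magnesium block (chromosome 11, 115249169 to 115267243, minus strand, protein coding). It held 820, 773 and 651 counts in GFP replicates 1, 2 and 3, or 83.0, 103 and 70.7 CPM. In NeuroD1 replicates 1, 2 and 3 it held 368, 196 and 363 counts, or 27.7, 19.0 and 32.6 CPM. The highest NeuroD1 library thus lay below the lowest GFP library, although the NeuroD1 libraries were the more deeply sequenced. The means were 85.7 ± 16.4 CPM for the GFP and 26.4 ± 6.90 CPM for the NeuroD1 libraries (SD, n = 3 each). The fitted log2 fold change was -1.70 (SE 0.26), and it lay between -1.87 (without NeuroD1 replicate 3) and -1.50 (without NeuroD1 replicate 2) when any 1 library was left out. It was -1.55 with offsets for transcript length and GC content.

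**Figure D2:**
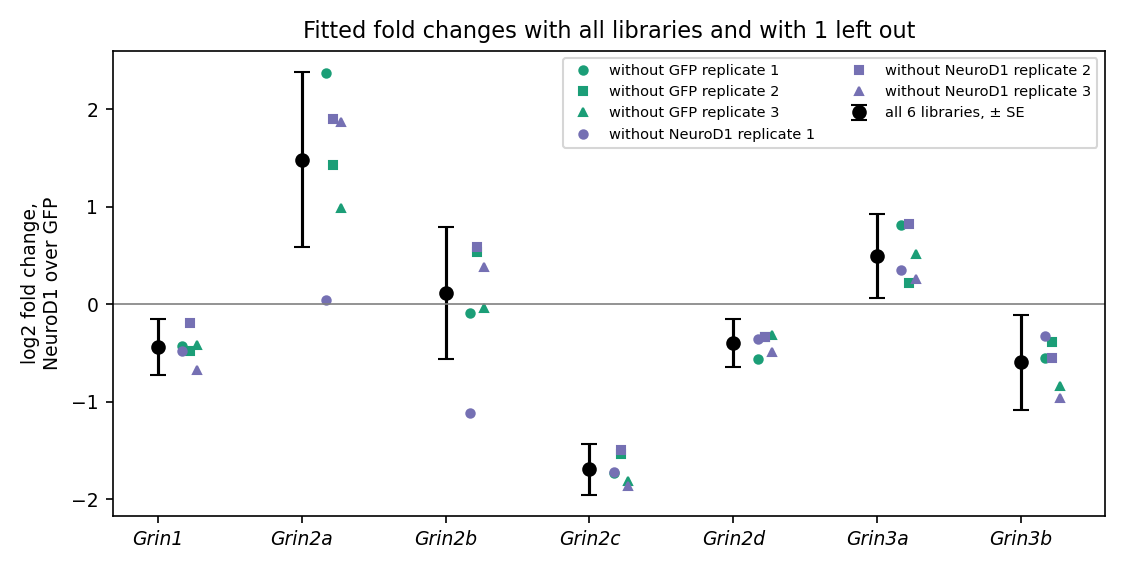
Fitted log2 fold changes of NeuroD1 over GFP for the 7 subunits with all 6 libraries (black, bars are the SE) and with each library left out in turn (green for a GFP library, purple for a NeuroD1 library). Grin2c stays between -1.87 and -1.50, while Grin2a is at 0.04 and Grin2b at -1.12 without NeuroD1 replicate 1.

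The delivered factor binds E-boxes, hexamers such as CAGATG, so the bases upstream of the annotated starts are shown for Grin2c, the subunit with the largest difference, and Grin3b, the subunit whose window holds that hexamer. RefSeq promoters (GRCm38.p6) were at hand for 4 subunits (Grin1, Grin2c, Grin2d and Grin3b), and the 250 bases before each start were searched on both strands for CAGATG, whose reverse complement is CATCTG, and for the palindrome CAGCTG. The windows, 5′ to 3′ on the gene's strand with a match in capitals, are chr11:115267244-115267493 (minus strand) and chr10:79970474-79970723 (plus strand):
Grin2c: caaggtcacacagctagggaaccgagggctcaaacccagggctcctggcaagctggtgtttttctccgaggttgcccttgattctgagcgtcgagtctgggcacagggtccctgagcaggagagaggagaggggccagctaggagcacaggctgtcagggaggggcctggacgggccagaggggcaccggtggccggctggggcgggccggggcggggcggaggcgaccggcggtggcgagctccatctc
Grin3b: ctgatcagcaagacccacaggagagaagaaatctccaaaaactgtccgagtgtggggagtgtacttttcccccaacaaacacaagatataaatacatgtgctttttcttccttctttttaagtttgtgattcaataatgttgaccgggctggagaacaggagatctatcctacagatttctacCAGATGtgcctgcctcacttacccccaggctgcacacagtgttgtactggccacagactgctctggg
The Grin3b window holds 1 CAGATG, which begins 67 bases before the start, and the windows of Grin1, Grin2c and Grin2d hold neither hexamer. The Grin2d window (chr7:45866682-45866931, minus strand) lies inside the gene span given further on (45831883 to 45878378). The RefSeq start used for Grin2d thus differs from the outer start of that span. Over all 32851 promoters of the table, 14.4% of such windows hold CAGATG and 13% hold CAGCTG. The Grin2c window is 68.8% G and C and the Grin3b window 46%. A match or its lack describes these letters only.

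Grin2a and Grin2b encode GluN2A, the main GluN2 subunit of mature forebrain synapses, and GluN2B, which predominates earlier in development. Grin2a (chromosome 16, 9567898 to 9995560, minus strand, protein coding) held 8.20, 4.01 and 0.761 CPM in GFP replicates 1, 2 and 3 and 27.3, 4.06 and 4.85 CPM in NeuroD1 replicates 1, 2 and 3. The NeuroD1 mean was carried by replicate 1 with 363 counts, against 42 and 54 in the other NeuroD1 libraries and 81, 30 and 7 in the GFP libraries. The fitted log2 fold change of Grin2a was 1.48 (SE 0.90) and 0.04 without NeuroD1 replicate 1. It was 2.37 without GFP replicate 1 and 0.98 without GFP replicate 3. With offsets for transcript length and GC content it was 1.12.

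Grin2b (chromosome 6, 135713233 to 136173511, minus strand, protein coding) held 20.8, 43.7 and 22.2 CPM in GFP replicates 1, 2 and 3 and 66.7, 7.64 and 18.8 CPM in NeuroD1 replicates 1, 2 and 3. The highest and the lowest library of all 6 were both in the NeuroD1 group. The fitted log2 fold change was 0.11 (SE 0.68), and it changed sign to -1.12 without NeuroD1 replicate 1 and to -0.20 with the length and GC offsets. Both genes have long, GC-poor transcripts, of 14.6 kb with 44.8% GC (Grin2a) and 24.1 kb with 45.7% GC (Grin2b), against 4.90 kb with 62.1% GC for Grin2c. Among 228 other tested genes with a transcript of at least 10000 bases and under 48% GC, a class picked after the data were seen, the median log2 deviation from the mean of the 6 libraries was 0.46 in NeuroD1 replicate 1. The same median was 0.07 and 0.11 in the other NeuroD1 libraries and 0.10, -0.40 and -0.37 in the GFP libraries. In NeuroD1 replicate 1 the deviation was 2.4 for Grin2a and 1.46 for Grin2b, and the part of transcript length and GC in the level of either gene was not tested.

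Grin2d encodes GluN2D, a subunit with slow deactivation found mainly in interneurons in the adult forebrain (chromosome 7, 45831883 to 45878378, minus strand, protein coding). It held 11.2, 15.2 and 15.5 CPM in GFP replicates 1, 2 and 3 and 10.1, 9.68 and 12 CPM in NeuroD1 replicates 1, 2 and 3. The groups overlapped only through GFP replicate 1 and NeuroD1 replicate 3, and the spread was small, with coefficients of variation of 17.1% and 11.8%. The fitted log2 fold change was -0.40 (SE 0.24), and -0.21 with the length and GC offsets. The span of Grin2d overlaps that of Kdelr1 on the opposite strand, which held 91.2 to 128 CPM, and reads of the overlap cannot be told apart without a stated strand setting.

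The GluN3 subunits reduce calcium entry when they join a receptor. Grin3a (chromosome 4, 49661611 to 49845744, minus strand, protein coding) held 30.0, 11.9 and 21.9 CPM in GFP replicates 1, 2 and 3 and 36.0, 14.8 and 39.3 CPM in NeuroD1 replicates 1, 2 and 3. Replicate 2 was the lowest library within each group. The fitted log2 fold change was 0.50 (SE 0.43), 0.21 without GFP replicate 2 and 0.82 without NeuroD1 replicate 2. Grin3b (chromosome 10, 79970715 to 79977190, plus strand, protein coding) had the fewest counts over all libraries, 10 to 20 in each, or 1.20 to 2.4 CPM with GFP and 0.753 to 1.80 CPM with NeuroD1. Its fitted log2 fold change was -0.60 (SE 0.49), -0.96 without NeuroD1 replicate 3 and -0.32 without NeuroD1 replicate 1. The span of Grin3b also overlaps Tmem259 on the opposite strand, which held 102 to 193 CPM.

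Levels of different subunits were compared per kb of the longest annotated transcript. In the GFP libraries the order was Grin1 (56.6 ± 3.20 CPM per kb), Grin2c (17.5 ± 3.35), Grin3a (2.84 ± 1.21), Grin2d (2.58 ± 0.44), Grin2b (1.20 ± 0.53), Grin3b (0.571 ± 0.19) and Grin2a (0.295 ± 0.25; SD, n = 3 each). The ranges of neighbours overlapped only between Grin3a and Grin2d and between Grin3b and Grin2a. In the NeuroD1 libraries Grin1 (41.7 ± 14.2 CPM per kb) was again the highest and Grin2c (5.40 ± 1.41) the next. There the range of Grin2c overlapped that of Grin3a (4.01 ± 1.78), although Grin2c was the higher of these in 3 of 3 libraries, and every later pair of neighbours overlapped too. The transcript ends in the authors' gene models are not stated, and a shorter model would give a higher level per kb. A longer model would give a lower level. The union of exons has 9700 bases for Grin1, against 4276 for the longest transcript, and 12275 against 7491 for Grin3a. The order and the overlaps were taken with the longest transcripts only, and those that involve Grin3a may depend on that choice.

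By the same measure Grin2c was the most abundant GluN2 transcript in all 6 libraries. It made up 82.9%, 81.2% and 79.0% of the summed Grin2a to Grin2d level in GFP replicates 1, 2 and 3, and 46.6%, 62.0% and 66.7% in NeuroD1 replicates 1, 2 and 3. The groups did not overlap in this share. Grin2c was singled out for its difference, so its lower share, and the ratio to Grin1 given below, are no separate evidence of that difference. The NeuroD1 library with the lowest share of Grin2c was the one with the highest Grin2a and Grin2b. Grin2d made up 12.2 ± 3.0% with GFP and 22 ± 6.6% with NeuroD1, Grin2b 5.41 ± 1.4% and 11.9 ± 9.5%, and Grin2a 1.36 ± 1.3% and 7.71 ± 6.7% (SD, n = 3 each). When NeuroD1 replicate 1 was left out the NeuroD1 means were 6.45% for Grin2b and 3.88% for Grin2a, and when GFP replicate 1 was left out the GFP mean of Grin2a was 0.669%. Counted without division by length, the mean share of Grin2c was 64.8% with GFP and 38.6% with NeuroD1, and in NeuroD1 replicate 1 Grin2b then had the largest share (50.6%, against 21.0% for Grin2c). The ratio of the summed GluN2 level to Grin1, both per kb, was 0.348, 0.490 and 0.314 in the GFP libraries and 0.275, 0.237 and 0.183 in the NeuroD1 libraries. The size of this ratio depends on the length taken for Grin1. Its longest transcript, used here, has 4276 bases, whereas the union of its exons has 9700. The ratio was not computed with that union.

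**Figure D3:**
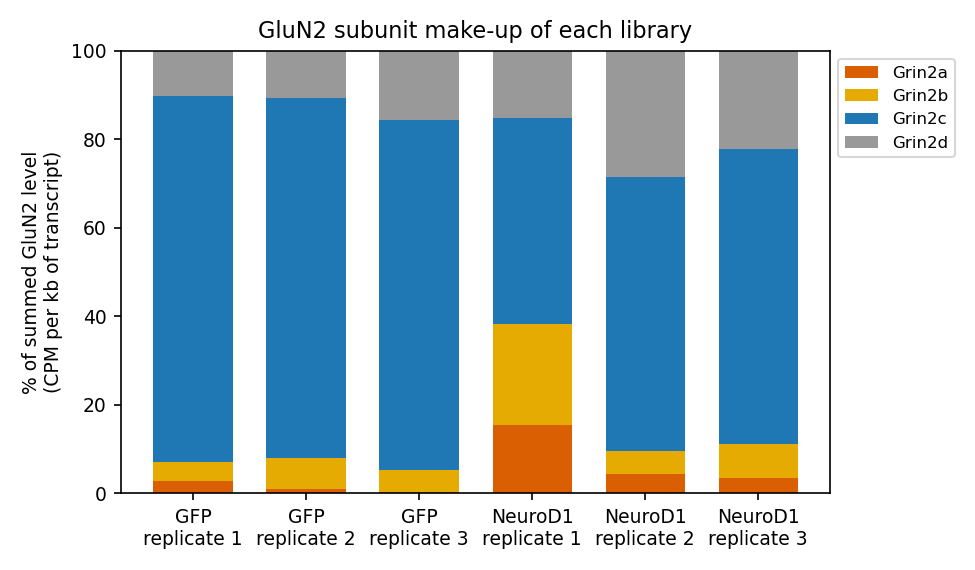
Share of each GluN2 gene in the summed GluN2 level (CPM per kb of transcript, in percent) in the 3 GFP and 3 NeuroD1 libraries, as stacked bars. Grin2c (blue) takes 79.0% to 82.9% in the GFP libraries and 46.6% to 66.7% in the NeuroD1 libraries, and Grin2a and Grin2b are largest in NeuroD1 replicate 1.

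Related genes include those that supply or remove the receptor's co-agonists. Of 12 tested genes of co-agonist and kynurenate metabolism 0 passed edgeR after adjustment, while 5 were lower and 0 higher with NeuroD1 at an unadjusted p under 0.05. Among all tested genes, 11.5% were lower and 12.5% higher by that criterion. The list's median log2 fold change was -0.26, beside 0.02 for all tested genes. Slc7a10, the astrocytic transporter of glycine and D-serine, held 33.0, 32.2 and 21.1 CPM in GFP replicates 1, 2 and 3 and 11.1, 8.42 and 16.1 CPM in NeuroD1 replicates 1, 2 and 3. The log2 fold change of Slc7a10 was -1.27 (SE 0.30, edgeR adjusted p = 0.136). Slc6a9, the glycine transporter GlyT1 that keeps synaptic glycine low, averaged 68.8 ± 7.32 CPM in the GFP and 42.6 ± 3.73 CPM in the NeuroD1 libraries (SD, n = 3 each). Ccbl1, a kynurenine aminotransferase that makes the endogenous antagonist kynurenate, averaged 13.3 ± 3.78 CPM in the GFP and 6.95 ± 1.12 CPM in the NeuroD1 libraries (SD, n = 3 each). In 5 of the 12 tested genes, these 3 among them, all NeuroD1 libraries lay below all GFP libraries, beside 15.3% of all tested genes. The other 2 of the 5 were the serine synthesis genes Psph (log2 fold change -0.53, SE 0.20) and Phgdh (-0.48, SE 0.21), chosen after their values were seen. For Srr, the enzyme that makes D-serine, the value was 0.41 (SE 0.24). Leaving out GFP replicate 1 gave 3 lower and 1 higher, GFP replicate 2 gave 2 lower and 1 higher, NeuroD1 replicate 1 gave 2 lower and 0 higher, and NeuroD1 replicate 2 gave 3 lower and 0 higher. With DESeq2, 2 of the 12 passed after adjustment, beside 9.45% of all tested genes.

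Proteins that anchor the receptor at the postsynaptic density had fitted changes on both sides of 0. Of 15 tested genes 0 reached an unadjusted edgeR p under 0.05, beside 24.0% of all tested genes, and 7 fitted log2 fold changes were above 0 and 8 below (median -0.01). The members with the smallest p were Akap5, which anchors kinases and calcineurin (log2 fold change 0.96, SE 0.46), Homer1, a scaffold that links to metabotropic receptors (0.78, SE 0.45), and Dlgap3 (-0.50, SE 0.38). In Akap5 and Homer1 the highest library was again NeuroD1 replicate 1, at 101 and 99.9 CPM. Without NeuroD1 replicate 2, 3 anchoring genes were higher at an unadjusted p under 0.05, and 2 were lower without NeuroD1 replicate 3.

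Among 20 kinases and signalling proteins that act downstream of the receptor, 1 was higher and 2 lower at an unadjusted edgeR p under 0.05, and 0 passed after adjustment. That is 15% of the list, beside 24.0% of all tested genes. DESeq2 called 1 of the 20 after adjustment, beside 9.45% of all tested genes. The median was -0.12, and 0.18 when NeuroD1 replicate 2 was left out. Camk2d, an isoform of the calcium/calmodulin kinase that is not specific to neurons, held 72.0, 48.2 and 79.2 CPM in GFP replicates 1, 2 and 3 and 136, 124 and 148 CPM in NeuroD1 replicates 1, 2 and 3. Every NeuroD1 library was above every GFP library (log2 fold change 1.03, SE 0.24, edgeR adjusted p = 0.136). Cdk5, a neuronal kinase that phosphorylates GluN2A (-0.54, SE 0.22), and Crtc1, a coactivator of CREB (-0.60, SE 0.26), were lower in 3 of 3 NeuroD1 libraries. In the whole list all NeuroD1 libraries lay below all GFP libraries in 4 of the 20 genes, beside 15.3% of all tested genes. They lay above in 1 of the 20, beside 14.2%. Leaving out GFP replicate 1 gave 4 higher and 1 lower, and leaving out NeuroD1 replicate 2 gave 4 higher and 0 lower. The lower count was also 0 when GFP replicate 2, GFP replicate 3 or NeuroD1 replicate 1 was left out.

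Of 14 genes that cluster or transport the receptor, 2 were higher and 1 lower at an unadjusted edgeR p under 0.05, or 21.4% of the list beside 24.0% of all tested genes, and 0 passed after adjustment. The median was 0.13, and -0.03 when NeuroD1 replicate 1 was left out. Reln, the secreted protein reelin that modulates NMDA receptor composition (log2 fold change 1.09, SE 0.41), and Lin7c, part of the complex that carries GluN2B along dendrites (0.78, SE 0.29), had higher fitted levels. Reln overlapped between the groups, with 15.8 CPM in NeuroD1 replicate 2 against 22.4 CPM in GFP replicate 1. Pick1, a PDZ protein of receptor trafficking, had a lower fitted level (-0.60, SE 0.21). Both counts were 0 when GFP replicate 2, GFP replicate 3 or NeuroD1 replicate 1 was left out. The higher count was 4 without GFP replicate 1 or NeuroD1 replicate 2, and the counts were 1 and 2 without NeuroD1 replicate 3.

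**Figure D4:**
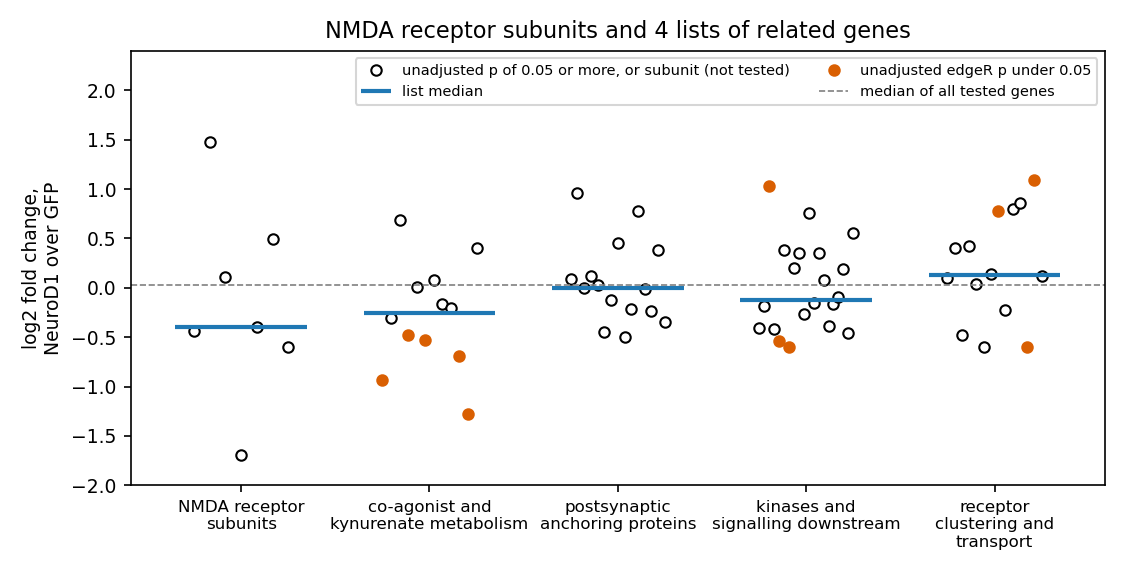
Fitted log2 fold changes of NeuroD1 over GFP for the tested genes of the receptor family and of 4 related lists, with the list median (blue) beside the median of all tested genes (dashed). Filled points had an unadjusted edgeR p under 0.05, and all 5 of them in the co-agonist list lie below 0; the subunits are shown without a test.

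Markers of the cells that could carry these transcripts differed between the libraries as well. In bulk tissue, fewer cells of a type and less RNA per cell cannot be told apart. The 12 astrocyte markers summed to between 9896 and 16472 CPM with GFP and between 5872 and 10741 CPM with NeuroD1, ranges that overlapped. Their median log2 fold change was -0.43, and 4 were lower and 0 higher at an unadjusted edgeR p under 0.05, beside 11.5% lower and 12.5% higher among all tested genes. After adjustment edgeR called 0 of the 12, beside 0% of all tested genes. DESeq2 called 3 as lower, beside 639 of all 14852 tested genes as lower and 9.45% in either direction. These 4 were Aldoc, S100b, Gfap and Acsbg1, named after their values were seen, while the water channel gene Aqp4 had a log2 fold change of 0.22 (SE 0.37) and the glutamate transporter gene Slc1a2 -0.13 (SE 0.48). Only 2 astrocyte markers were lower by that criterion when GFP replicate 1, GFP replicate 2 or NeuroD1 replicate 2 was left out, and likewise when offsets for length and GC were used.

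Grin2c was low relative to the astrocyte markers too. Per 100 CPM of their geometric mean, Grin2c stood at 14.8, 26.5 and 21.4 CPM in GFP replicates 1, 2 and 3 and at 8.22, 8.46 and 8.79 CPM in NeuroD1 replicates 1, 2 and 3. The groups did not overlap in this ratio, and the NeuroD1 libraries were close together. Against Aldoc, a glycolytic enzyme of astrocytes and the marker with the lowest fold change, the difference was smaller, at 6.45 ± 0.54 CPM per 100 CPM of Aldoc with GFP and 4.61 ± 0.25 with NeuroD1. Against S100b, a calcium-binding protein, it was 32.7 ± 1.84 and 21.5 ± 3.60 (SD, n = 3 each). Neither ratio overlapped between the groups. These ratios share Grin2c and the libraries with the fold change given above and are no separate evidence of it.

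**Figure D5:**
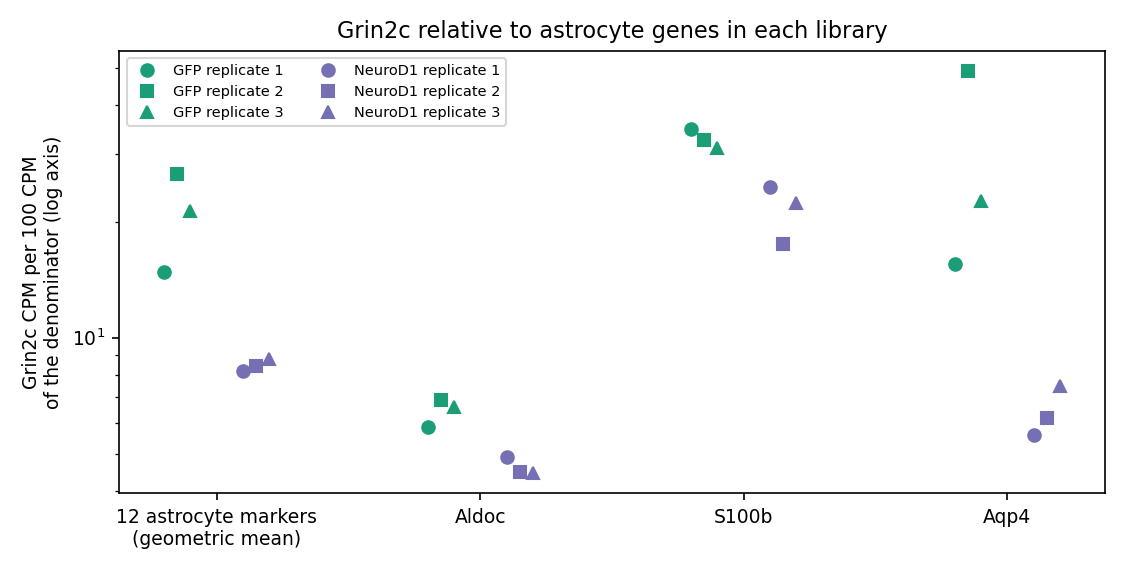
Grin2c CPM per 100 CPM of 12 astrocyte markers (geometric mean), of Aldoc, of S100b and of Aqp4 (log axis) in the 3 GFP (green) and 3 NeuroD1 (purple) libraries. For each denominator all 3 NeuroD1 libraries lie below all 3 GFP libraries, with the least separation for Aldoc (4.45 to 4.89 against 5.85 to 6.90).

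The remaining marker lists gave these median log2 fold changes, with 0 members past edgeR's adjusted threshold in any of them, as for 0% of all tested genes. After adjustment DESeq2 called 9.45% of all 14852 tested genes, 639 of them as lower and 765 as higher. It called 7 of 9 endothelial, 3 of 8 mature oligodendrocyte and 1 of 5 thalamus markers as lower. It called 2 of 7 oligodendrocyte precursor markers as higher, and 0 in the other lists of this paragraph. At an unadjusted edgeR p under 0.05, the criterion of the counts that follow, 11.5% of all tested genes were lower and 12.5% higher. Neuronal lists lay near 0, at -0.05 for pan-neuronal, 0.05 for excitatory and -0.05 for interneuron markers, and their signs changed with the library left out. Oligodendrocyte precursor markers, whose cells also carry NMDA receptors, had a median of 0.71, with 4 of 7 higher (2 when GFP replicate 3 or NeuroD1 replicate 1 was left out). The other 3 of these markers had fitted log2 fold changes below 0 (Sox10 -0.31, Olig1 -0.36 and Olig2 -0.17), so the list did not move as a whole. Mature oligodendrocyte markers had a median of -0.54, with 4 of 8 lower (1 when GFP replicate 2 or NeuroD1 replicate 1 was left out). Endothelial markers had a median of -1.29 (7 of 9 lower) and microglia markers 0.16 (0 of 8). Striatum markers had a median of 0.22, and -0.35 when NeuroD1 replicate 3 was left out. Thalamus markers had a median of 0.02, which was -0.24 when NeuroD1 replicate 2 was left out. The median was 0.35 without the filter on low counts, where the low-count markers Slitrk6 and Gbx2 joined the tested ones. That value thus covers a different set of markers. The 4 tested cerebellar granule cell markers had a median of 0.77. The median was -0.13 in the fit without NeuroD1 replicate 2. The filter on low counts was rerun in that fit, so these medians need not cover the same markers and the sign change is not read. The defining granule cell gene Gabra6 was at 0 to 0.101 CPM in all 6 libraries. The part of other cell types in the subunit levels was not tested.

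Among 10962 other tested genes with a mean of at least 10 CPM, those most like Grin2c by Pearson's r of log2 CPM over the 6 libraries were Slc38a3 (r = 0.996), Grm2 (0.995), Psd2 (0.994), Mpzl1 (0.992) and Pacsin3 (0.992). Slc38a3 encodes a glutamine transporter of astrocytes, and Grm2 a metabotropic glutamate receptor that lowers transmitter release. All 5 had lower mean levels with NeuroD1, as likeness to Grin2c over 2 groups requires, and Slc38a3 averaged 211 ± 30.5 CPM in the GFP and 92.2 ± 22.1 CPM in the NeuroD1 libraries (SD, n = 3 each). The genes most like Grin1 were Clip3 (r = 0.998), Abcb9 (0.998), Rab23 (0.997), Ephx4 (0.997) and Strn4 (0.996). These share with Grin1 a NeuroD1 replicate 2 that was low, and Clip3 averaged 628 ± 19.1 CPM in the GFP and 531 ± 90.5 CPM in the NeuroD1 libraries (SD, n = 3 each). With 6 points and 10962 genes such values of r are the top of a long list and a description only.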

How the data were processed

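RNA abundance was measured by bulk RNA sequencing in 6 cortex samples, 3 per group. The deposited values are raw counts by gene symbol from featureCounts, run with gene models for mm10, per the file headers. The submitters' processing notes list HISAT2 2.0.1, DESeq2 1.16.1 and GRCm38 but give no step for any of them. The sources used here do not give the strand setting, the annotation release or the treatment of multi-gene reads.

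Counts were tested with edgeR 4.0.16 (quasi-likelihood F-test, TMM scaling, treatment as the only term, R 4.3.3). Genes were kept by filterByExpr (minimum count 10, minimum total 15), and p-values were adjusted by Benjamini-Hochberg over all tested genes, threshold 0.05. Standard errors were derived from the F statistic. CPM are counts scaled by the TMM-adjusted library size. Levels per kb were divided by the longest GENCODE M21 transcript (GRCm38), chosen over the union of exons because that union holds retained introns. The alternatives were DESeq2 1.42.0, limma-voom (limma 3.58.1), size factors, no filter, a replicate block, each library left out, and, added after the data were seen, offsets for transcript length and GC content, which used natural splines with 4 degrees of freedom. The edgeR fit was tested on simulated data.

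The subunits and all gene lists were chosen with earlier results of these data known. The rule for named genes took Neurod1, the 7 subunits, the 3 members of each pathway list with the smallest p, the 2 most abundant of each marker list, and the 5 genes most like Grin2c and Grin1. Markers are given as whole lists, and singly only where a result turns on them.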

Additional observations from a re-analysis of the deposited data

How the results depend on the processing

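The count of genes called over the whole table depended on the test: edgeR called 0, DESeq2 1404 and edgeR with a replicate block 479, while leaving out 1 library gave 0 to 1. At an unadjusted p under 0.05 the count was 3564, and between 1804 and 4374 with 1 library left out. Counts lower by over 1.5 times came from leaving out GFP replicate 2 (1804), GFP replicate 3 (1891) or NeuroD1 replicate 1 (2015). Leaving out GFP replicate 1 (4245), NeuroD1 replicate 2 (3641) or NeuroD1 replicate 3 (4374) gave counts above 3564, so the count depended on which library was dropped. The median log2 fold change of the subunits stayed below 0 in all 11 alternatives (-0.49 to -0.19), as did Grin2c (-1.87 to -1.50), Grin1, Grin2d and Grin3b. Grin2a and Grin3a stayed above 0 in all 11. Grin2b kept its sign in 6 of 11 and was -0.29 with the replicate block. The replicate numbers were not treated as pairing the samples, since the deviations of same-numbered libraries correlated at 0.54, 0.37 and 0.04, the last under 0.1, and the third GFP library correlated more with the second NeuroD1 library (0.13). Each NeuroD1 library still correlated most with the GFP library of its own number. For the third this was narrow (0.04, against 0.03 with the first GFP library), so a pairing was not settled. With the block edgeR called 1 of the 7 subunits, Grin2c, beside 3.23% of all tested genes. At an unadjusted p under 0.05 that fit had 2 subunits higher and 1 lower, beside 5016 of all 14852 tested genes. Since the family was chosen on this contrast, nothing is read from these counts either. Few counts limit the precision of Grin3b (10 to 20 a library) and of Grin2a in GFP replicate 3 (7).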
